A study of Obba rivulosa with 6 samples.

Results

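Of the 12424 gene models listed for the white-rot fungus Obba rivulosa on spruce wood, 85 were abundant and nearly level from week 2 to week 8 of the culture. They were chosen from the measurements themselves. A model was taken when it had 200 FPKM or more in all 6 libraries and when its highest FPKM was less than 1.5 times its lowest. FPKM is the number of sequenced fragments per kilobase of gene model, scaled to the size of the library, so it is a level per length that can be compared between models of a library. Of the 312 models with 200 FPKM or more in every library, 85 (27.2%) met the bound on spread and 227 did not.

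The fungus was the monokaryotic strain 3 A-2, which the labels list beside the dikaryotic strain FBCC1032. All 3 groups shared strain and culture. Homogenised mycelium from a liquid pre-culture of 7 days was put on 2 g of Norway spruce wood sticks over 1% water agar, and stood in the dark at 28 °C for 2, 4 or 8 weeks. There were 2 libraries per week, 6 in all, with 4908235 to 5154075 expected counts each. The groups differ in culture age only and no culture without wood is among them. The labels do not say whether the libraries of a week came from separate cultures, so the spread between them may be partly technical.

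White-rot fungi break down lignin as well as cellulose and hemicelluloses with secreted enzymes, and take up the released sugars. In fungi as in other organisms, genes for basic cell functions are often transcribed at high and steady levels in many conditions, and such genes serve as yardsticks against which other transcripts are measured. A level transcript in sequencing data is one that keeps its share of the library, since library totals carry no information on the amount of RNA or mycelium in a wood stick. Less mycelium and less RNA per cell cannot be told apart here. The identifiers carry a JGI protein number and a gene prediction name, as in jgi|Obbri1|787191|fgenesh1_kg.1_#_48_#_Locus47v1rpkm2323.10, and no product name. Models are therefore called by their protein number, and which of them encode wood-degrading enzymes or enzymes of carbon metabolism is not analysed here.

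The 85 models had mean levels over the 6 libraries from 228.6 to 2508 FPKM, with a median of 398 FPKM. The coefficient of variation over the 6 libraries ran from 4.11% to 19.4% with a median of 11.7%, and the ratio of highest to lowest FPKM from 1.106 to 1.499 with a median of 1.34. The ratio was below 1.2 in 16 models, below 1.3 in 37 and below 1.4 in 50. These values describe the choice, since the rule was applied to them. The other 227 abundant models had a median ratio of 2.07 and a median level of 473 FPKM, and all 12424 listed models a median ratio of 2.32.

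**Figure D1:**
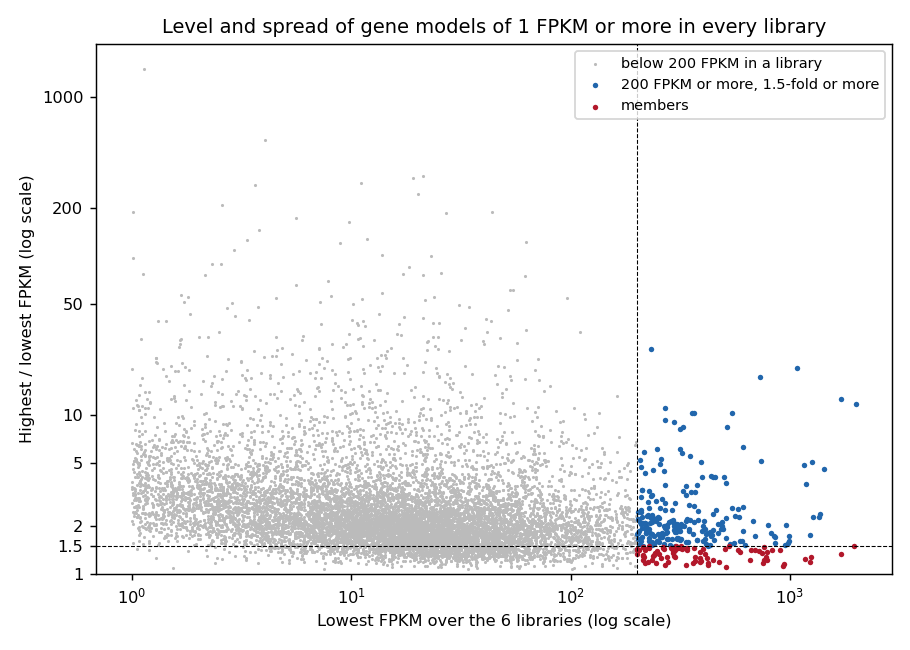
Each point is a gene model of 1 FPKM or more in every library, with its lowest FPKM over the 6 libraries on the horizontal log axis and its highest FPKM divided by its lowest on the vertical log axis. The 85 members lie right of the dashed line at 200 FPKM and under the dashed line at 1.5, and the 227 other abundant models lie above them, with a median ratio of 2.07.

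Together the 85 models took a nearly fixed part of every library, which the rule largely imposed by bounding each model in these libraries. Their shares and medians therefore describe the choice. Their share of all expected counts was 5.52% and 5.53% in the week 2 libraries, 5.61% and 5.43% in those of week 4, and 5.71% and 5.79% in those of week 8. The week 8 libraries were the highest and week 4 replicate 2 the lowest. The 227 other abundant models held 18.8% and 18.5% at week 2, then 20.4% and 18.3% at week 4, then 16.8% and 16.5% at week 8. The median FPKM of the 85 models lay between 390.6 and 399.2 in the 6 libraries. The median of all listed models was 18.4 and 18.3 FPKM at week 2, then 19.2 and 18.1 at week 4, then 23.7 and 23.9 at week 8.

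The top of the set reached the range of the most abundant transcripts of the fungus. By mean FPKM the 85 models ranked from number 10 to number 553 of all models, with 5 among the 50 highest and 21 among the 100 highest. Of 16 models with 1000 FPKM or more in every library 5 were members, and of 67 models with 500 FPKM or more in every library 25 were. The 10 members with the highest mean contributed 30.9% of the members' counts.

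Model 787191 was the most abundant member. It stood at 2632 and 2750 FPKM at week 2, then 1968 and 1950 at week 4, then 2831 and 2920 at week 8. Both week 4 libraries lay below the other 4, and the libraries of each week were close to each other. Its ratio of 1.497 put it just inside the bound, and its mean was 2508 ± 436 FPKM (SD over 6 libraries). Model 196795, second in level, had 2263 and 1958 FPKM at week 2, then 1728 and 1700 at week 4, then 1762 and 1890 at week 8. Here too week 4 was lowest, and the week 2 libraries differed from each other by more than those of weeks 4 and 8 did.

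Model 238431 had 1516 and 1449 FPKM at week 2, then 1584 and 1555 at week 4, then 1392 and 1243 at week 8, so the weeks did not overlap and week 8 was lowest. Model 798255 had 1229 and 1244 FPKM at week 2, then 1467 and 1296 at week 4, then 1291 and 1337 at week 8. Its single high value was week 4 replicate 1, and its weeks 4 and 8 overlapped. Model 838571 had 1285 and 1303 FPKM at week 2, then 1170 and 1271 at week 4, then 1182 and 1453 at week 8, where the libraries of week 8 were the lowest but 1 and the highest of all.

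Model 749653 climbed through the culture, from 904 and 915 FPKM at week 2 through 999.8 and 926 at week 4 to 1132 and 1273 at week 8, with no overlap between weeks. Model 738134 had 934 and 966 FPKM at week 2, then 1083 and 1050 at week 4, then 1084 and 982 at week 8, and model 54612 had 1036 and 964, 1030.01 and 929, and 995 and 1052 FPKM in the same order. In model 54612 every week overlapped the others, and its coefficient of variation was 4.72%. Models 629767 and 629869 completed the 10 highest. The first went from 1170.3 and 1128 FPKM at week 2 to 925 and 834 at week 4 and 825 and 896 at week 8. The second went from 1118 and 1029 through 922 and 810.4 to 757 and 879 FPKM. In both, the week 2 libraries lay above all later ones, and weeks 4 and 8 overlapped. Both had expected counts that were not whole in all 6 libraries, a sign of reads shared out among similar sequences, so their levels are uncertain.

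**Figure D2:**
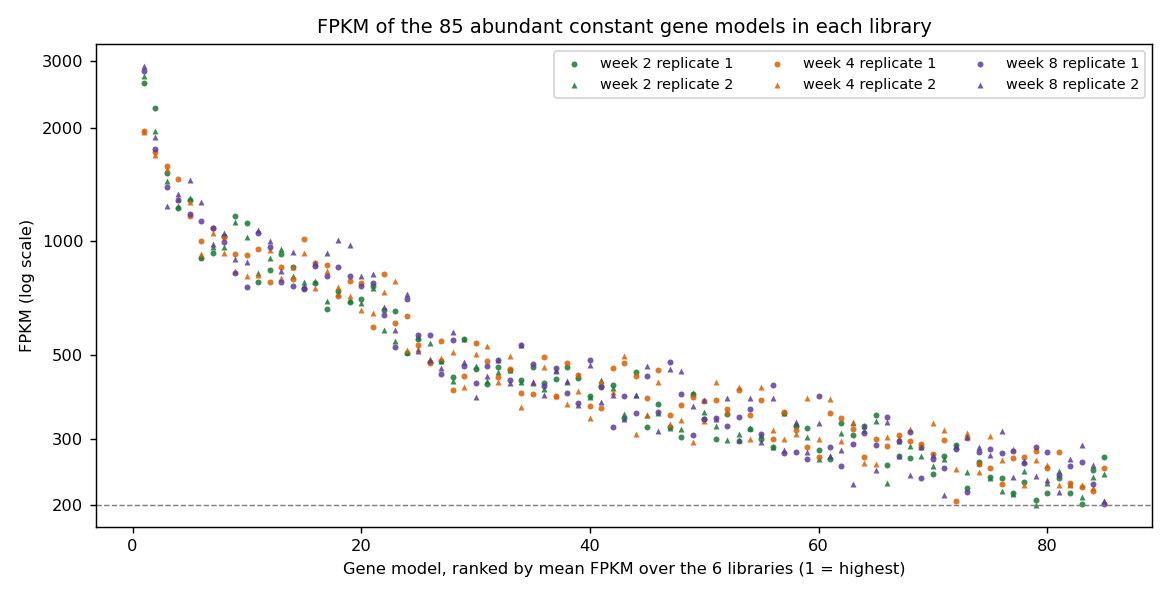
The FPKM of each of the 85 gene models in the 6 libraries on a log axis, ranked by mean FPKM from 1 (2508 FPKM) to 85 (228.6 FPKM), with colour for the week and circles and triangles for replicates 1 and 2. The dashed line marks 200 FPKM, the lower bound of the rule. No week lies above the others along the whole ranking.

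The 6 members with the smallest ratios ranked from number 7 to number 67 of the 85 by mean level. Model 787692 had the smallest ratio, 1.106, with 551 and 557 FPKM at week 2, then 530.2 and 518 at week 4, then 566 and 512 at week 8. Weeks 2 and 4 did not overlap, and the libraries of week 8 were the highest and the lowest of all. Model 703120 had 270.1 and 295 FPKM at week 2, then 306 and 301 at week 4, then 295 and 270.1 at week 8, a ratio of 1.133. Week 4 was highest there by a narrow margin. Model 812553, the longest member at 3576 bases, had 338 and 353 FPKM at week 2, then 377 and 334 at week 4, then 339 and 379 at week 8, with all weeks overlapping and a ratio of 1.135. Model 818945 had 465 and 451 FPKM at week 2, then 437 and 424 at week 4, then 486 and 485 at week 8, a ratio of 1.147. Unlike the other models of this paragraph it kept its weeks apart in all 3 pairs. Models 54612 and 738134, described above, were the other two of the 6 smallest ratios, at 1.132 and 1.160.

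Most of the models nearest the bound showed week-to-week courses. Model 718240 had 323 and 319.7 FPKM at week 2, then 346 and 328 at week 4, then 478 and 458 at week 8, a ratio of 1.495. Model 496827 had 302 and 318 FPKM at week 2, then 369 and 335 at week 4, then 394 and 453 at week 8, a ratio of 1.499. Model 727784 had 256 and 228 FPKM at week 2, then 286 and 303 at week 4, then 342 and 332 at week 8, a ratio of 1.497. In all 3, each later week lay above the earlier one without overlap. Model 171905 had 269 and 265 FPKM at week 2, then 298 and 317 at week 4, then 251 and 213 at week 8, a ratio of 1.488, with week 4 highest and week 8 lowest. Model 791868, with a ratio of 1.499, had 653 and 543 FPKM at week 2, then 608 and 787 at week 4, then 525 and 582 at week 8. Week 2 overlapped both other weeks, and the widest ratio between libraries of 1 week, 1.296, exceeded the ratio of its week means, 1.260.

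Just outside the bound on spread lay models 796295, 725157, 763335 and 809888, with ratios of 1.502, 1.512, 1.512 and 1.514. Their FPKM ran from 215 to 322, from 422 to 639, from 299.8 to 453 and from 622 to 941. Just outside the bound on level, with ratios below 1.5, lay models 833906, 326791, 788087 and 749782, whose lowest FPKM were 196, 194, 192 and 192. The step from members to non-members was therefore small on both bounds.

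The least abundant members were models 788128, 776764 and 788211. Model 788128 had 268 and 241 FPKM at week 2, then 251 and 206 at week 4, then 201 and 205 at week 8. Model 776764 had 248 and 237, 218 and 222, and 227 and 256 FPKM in the same order, and model 788211 had 201 and 209.9, 223 and 226, and 259.6 and 288. Model 788211 rose with the weeks without overlap, and model 776764 was lowest in both libraries of week 4. Model 743198, the second longest member at 3080 bases, had 414 and 429 FPKM at week 2, then 363 and 426 at week 4, then 410.5 and 376 at week 8, so that week 4 overlapped both other weeks.

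Within the bound, members took different courses. By week means, 31 members had their peak at week 4, 19 their dip at week 4, 22 rose and 13 fell from week to week. The weeks did not overlap in the way the course implies in 18 of the peaks (21.2% of the members, beside 14.6% of all listed models with such a separated course). The same held for 12 of the dips (14.1% beside 22.4%), for 9 of the risers (10.6% beside 9.23%) and for 0 of the fallers (beside 3.00%). The rule limits these courses to less than 1.5-fold, and nothing is read from the counts.

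The week means of a member differed by a median ratio of 1.23, and at most by 1.47 (model 787191). The 2 libraries of a week differed by a median ratio of 1.04 at week 2, then 1.09 at week 4, then 1.08 at week 8. For the 227 other abundant models these replicate ratios were 1.05, 1.18 and 1.17. In 30 of the 85 members the widest replicate ratio was as large as the ratio of week means or larger, against 19 of the 227. The rule bounded the members' week means as well, while the 227 had a median ratio of week means of 1.80. The contrast therefore largely follows from the choice, and nothing is read from it. A small replicate ratio is partly what the rule asked for, because it bounded all 6 libraries.

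The extremes fell in all 6 libraries. The highest value fell in week 8 replicate 2 for 27 members, week 4 replicate 1 for 18, week 4 replicate 2 for 16, week 8 replicate 1 for 13, week 2 replicate 1 for 7 and week 2 replicate 2 for 4. The lowest value fell in week 2 replicate 1 and in week 4 replicate 2 for 18 members each, and in the other libraries for 10 to 15. For most members counting error was small beside these differences. The members had 235 to 28393 expected counts in a library, and the variation of a member's counts over the libraries was 1.25 to 715 times what counting alone gives, with a median of 30.7. The smallest figures were 1.25 for model 720059 and 2.2 for model 703120, where counting error was not small. Model 720059 was the shortest member at 153 bases and also had the fewest counts. Its FPKM were 464 and 422 at week 2, then 393 and 424 at week 4, then 474 and 424 at week 8. Model 883230, the next shortest at 296 bases, had 321 and 303 FPKM at week 2, then 285 and 385 at week 4, then 264 and 277 at week 8. The value of 385 FPKM in week 4 replicate 2 was its high point, while week 4 replicate 1 lay between the values of weeks 2 and 8.

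That the 85 models were level depended on what they were measured against. FPKM and total counts relate a model to the whole library. The trimmed mean of M values (TMM), the scaling of edgeR, relates it to the bulk of gene models, so that a typical model keeps its level. The TMM factors were 0.927 and 0.915 at week 2, then 0.975 and 0.906 at week 4, then 1.144 and 1.165 at week 8. On this scale the median level of the 85 models was 426 and 428 at week 2, then 407 and 437 at week 4, then 349 and 336 at week 8, in TMM-scaled counts per kilobase set to the median of FPKM. The week 8 libraries lay below the other 4, and the lowest library was one of week 8 for 66 of the 85 members (35 in replicate 1 and 31 in replicate 2).

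With TMM the median log2 fold change of the members was 0.03 from week 2 to 4, -0.30 from week 4 to 8 and -0.28 from week 2 to 8. The median of all 10889 tested models was 0.00, 0.01 and 0.05. With total counts only, the members' medians were 0.06, -0.01 and 0.05, and those of all tested models 0.03, 0.31 and 0.37. The distance between members and all models was nearly the same on both scales, 0.03, -0.32 and -0.32 with TMM and 0.03, -0.31 and -0.32 with total counts. A change of scaling moves the fold changes of all models by nearly the same amount, so this likeness is given by the calculation. For the 227 other abundant models the distance was -0.07, -0.25 and -0.12 with TMM. Since the rule held the members near 0 on the FPKM scale, their shift on the TMM scale follows from the scaling factors and is no separate finding.

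**Figure D3:**
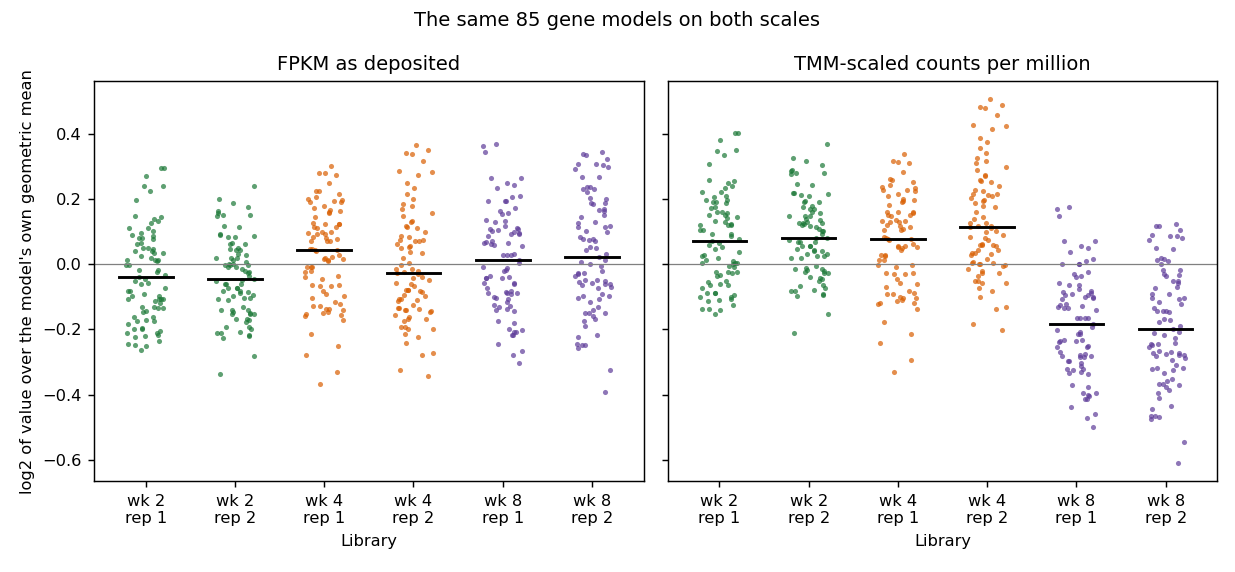
Each point is 1 of the 85 gene models in 1 library, as the log2 of its value over its own geometric mean across the 6 libraries, with FPKM on the left and TMM-scaled counts on the right, and black bars at the medians. On the left the medians stay near 0 in every library. On the right those of both week 8 libraries lie below 0 and those of the other 4 above it.

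The same split appears in the calls of edgeR's quasi-likelihood test with Benjamini-Hochberg adjustment, fitted to all 10889 models. These calls use the libraries the rule used and are given as a description. For week 8 against week 4, 21 of the 85 members were called changed at an adjusted p below 0.05, all of them lower. Of all tested models 38.0% were called, 20.0% lower and 18.0% higher. For week 8 against week 2, 11 were called, all lower, while 26.9% of all tested models were called, 13.7% lower and 13.2% higher. With total counts only, 2 and 3 members were called in these comparisons, all higher, beside 33.4% and 32.5% of all tested models called higher. For week 4 against week 2, 0 members were called beside 37.2% of all tested models (19.5% higher and 17.7% lower). In that comparison DESeq2 and limma called 3 each (31.3% and 35.3% of all). The F test over the 3 weeks called 22 members beside 51.8% of all tested models, and with total counts only 1 member beside 62.6%.

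The counts of called members moved with single libraries, and so did the share of all models called. The 21 members became 4 without either week 2 library (29.2% and 29.3% of all tested models called), 12 without the first week 8 library (28.9%) and 3 without the second (15.7%). Whichever library was left out, the members' median log2 fold change from week 4 to 8 stayed between -0.31 and -0.26. The 11 became 0 without either week 2 library (15.1% and 15.8% of all), 5 without either week 8 library (18.3% and 17.6%) and 25 without either week 4 library (34.5% and 34.7%). The median log2 fold change from week 2 to 8 stayed between -0.29 and -0.26. The 22 of the F test became 0 without either week 2 library (34.5% and 35.7% of all), 12 without replicate 1 of week 8 (42.1%) and 5 without its replicate 2 (36.2%).

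Part of the set was level on both scales. On the TMM scale 50 of the 85 members (58.8%) still had a highest value below 1.5 times the lowest. Of all 1342 listed models within 1.5-fold in FPKM, 923 were also within it with TMM, a larger share. The median ratio of the 85 became 1.43, with a highest ratio of 1.91 (model 171905). Applied to TMM-scaled values, the whole rule found 82 models, of which the same 50 (61.0%) were members. Among them, 3 were picked after their values were seen because the larger of their 2 ratios was smallest. Model 788608 had a ratio of 1.167 on FPKM and 1.171 with TMM, with 260.3 and 259 FPKM at week 2, then 257 and 245 at week 4, then 277 and 286 at week 8. Model 810874 had ratios of 1.168 and 1.2, with 774 and 786 FPKM at week 2, then 878 and 751.5 at week 4, then 858 and 878 at week 8. Model 818945, described above, had ratios of 1.147 and 1.206. On FPKM, model 788608 was highest and on TMM lowest at week 8, so even for these models the order of the weeks depended on the scale.

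The 6 members nearest the bound on FPKM moved in both directions. With TMM the ratio of model 496827 went from 1.499 to 1.193, that of model 718240 from 1.495 to 1.199 and that of model 727784 from 1.497 to 1.342. Model 787191 stayed close to the bound, at 1.497 and 1.490. The ratio of model 791868 went from 1.499 to 1.891 and that of model 171905 from 1.488 to 1.910. Among other members, model 749653, which climbed in FPKM, had a ratio of 1.408 there and of 1.121 with TMM, while model 629869 went from 1.476 to 1.822 and model 238431 from 1.274 to 1.607.

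Whether level models can be picked from part of the libraries was examined with libraries that had no part in the picking. In the 3 replicate 1 libraries, 358 models had 200 FPKM or more throughout, and 158 of them stayed within 1.5-fold. Of these 158, 95 (60.1%) met the whole rule in the 3 replicate 2 libraries, and their median ratio there was 1.396. Of all 358 abundant models, picked or not, 113 (31.6%) met it there. Of the 200 models that exceeded 1.5-fold in replicate 1, 18 (9.0%) met the rule in replicate 2, and the median ratio there was 2.15. Picked in replicate 2 and measured in replicate 1, 95 of 118 (80.5%) met the rule. This stood beside 141 of all 329 abundant there (42.9%) and 46 of the 211 not picked (21.8%). The same 95 models met the rule in both directions, so the exchange is no second check and changes only how many were picked. The 85 members are among these 95, as the rule requires. The libraries of a week may also not be separate cultures, so these shares do not show how steady the models are in new cultures. Models are not independent samples, and no test was made.

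Abundance and steadiness went together only in part. Among models with a mean of 200 to 400 FPKM, 55 of 395 (13.9%) stayed within 1.5-fold in FPKM, and among those of 400 to 800 FPKM 24 of 167 (14.4%). From 800 FPKM up it was 18 of 84 (21.4%), yet the median ratio of that class was also the largest of the classes from 200 FPKM up, at 3.17. Models of 25 to 50 FPKM stayed within 1.5-fold in 414 of 2538 cases (16.3%), and models of 1 to 10 FPKM, where a model had a median of 18.9 counts per library, in 126 of 3121 (4.04%). With TMM the shares were 26.6% at 25 to 50 FPKM and 19.0% from 800 FPKM up, so the class with the highest share differed between the scales. Over all listed models, 1342 stayed within 1.5-fold in FPKM, 2046 with TMM and 923 on both scales.

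**Figure D4:**
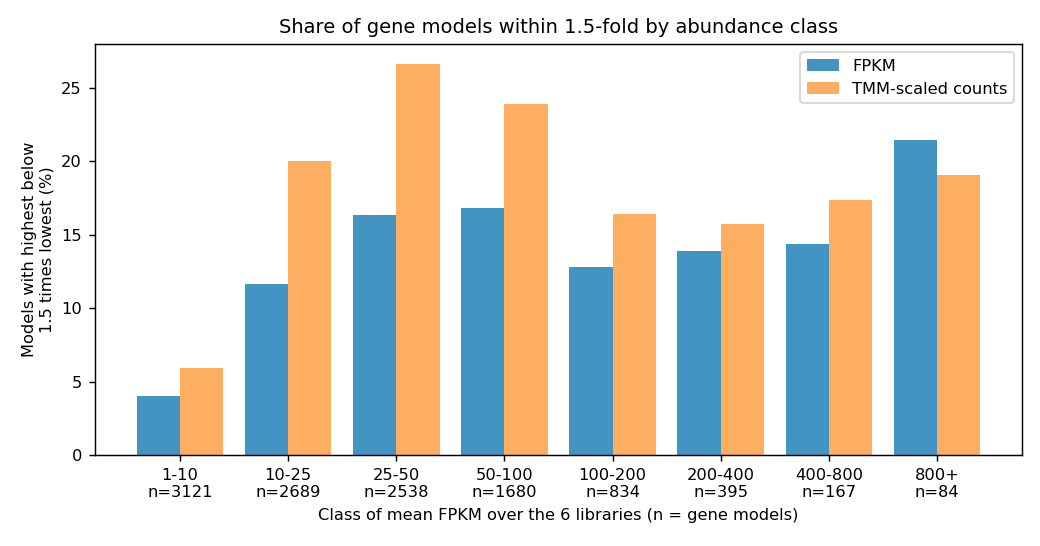
Share of gene models whose highest value was below 1.5 times the lowest over the 6 libraries, in percent, by class of mean FPKM, in FPKM (blue) and in TMM-scaled counts (orange). In FPKM the share is 21.4% from 800 FPKM up and 16.3% at 25 to 50 FPKM, and in TMM-scaled counts it is 19.0% and 26.6%.

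The rule set no bound on length, shared reads or the kind of gene prediction. Length and shared reads still enter it through FPKM, so the comparisons here are not independent of the choice. The members' median length was 1194 bases, with quartiles of 867 and 1644 and a range from 153 to 3576. The other abundant models had a median of 1050 bases and all listed models one of 1243. A count that was not whole in at least 1 library occurred in 7 members (8.24%), against 37 (16.3%) of the other abundant models and 11.8% of all. Besides models 629767 and 629869 these were models 384979, 830824, 789133, 43812 and 865587. The name of the prediction began with fgenesh1_kg in 25 members (29.4%), 70 of the other abundant models (30.8%) and 22.9% of all listed models. None of these comparisons was tested.

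Names of the fgenesh1_kg kind can end in a locus number and a value marked rpkm, which is fixed in the name and the same in all 6 tables. How and in which culture it was measured was not stated. All 25 of these members carried one, from 6.24 to 2323.1 with a median of 300.5, and 20 of them (80%) had 200 or more. Of the 68 other abundant models with such a value, 51 (75%) had 200 or more, and of all 2698 models with one, 6.82%. The value lay within a factor of 2 of the mean FPKM on spruce for 19 of the 25 members (76.0%), for 44 of the 68 other abundant models (64.7%) and for 55.5% of all. Across the 25 members Spearman's rho between the 2 values was 0.62, across the 68 other abundant models 0.26, and across all 2698 models, which span a much wider range of levels, 0.75. Pearson's r of the log2 values was 0.44, 0.13 and 0.74 in the same order. These correlations run across genes, which share libraries and are not independent replicates.

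The pair of values was close for the most abundant member, model 787191, whose name gives 2323.1 against a mean of 2508 FPKM on spruce. It was 1000.33 against 1311 FPKM for model 798255 and 202 against 235 FPKM for model 788211. For model 787692, the member with the smallest ratio in FPKM, the name gives 1086.87 against 539 FPKM. The single member whose name value was more than 10 times below its level was model 791868, with 6.24 in the name against 616 ± 95.4 FPKM (SD over 6 libraries). It is a short model of 325 bases and had at least 791 counts in every library. Among the 68 other abundant models, 6 were.

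**Figure D5:**
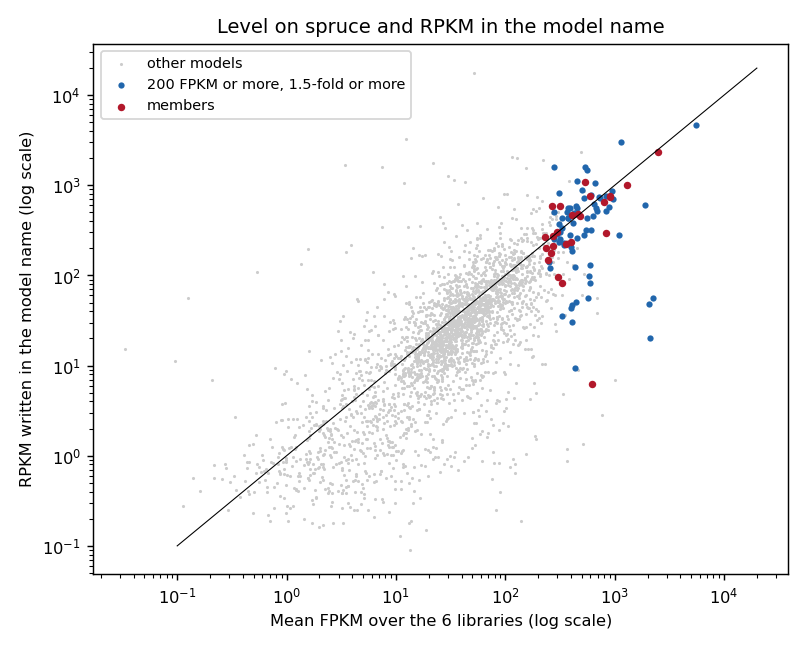
RPKM value written in the model name (vertical log axis) against mean FPKM over the 6 libraries on spruce (horizontal log axis), with 25 members in red, 68 other abundant models in blue and other models in grey, and the line of equal values. Of the members, 19 lie within a factor of 2 of the line, and model 791868 lies farthest from it, at 6.24 in the name and 616 FPKM on spruce.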

How the data were processed

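Each library came as a table of gene models with a length, an expected count and an FPKM value. The submitters' processing notes name RSEM, BWA and Bowtie. Their versions and settings and the genome build were not stated there. The authors' expected counts are estimates without normalization. The FPKM values were scaled by the authors to length and library size. The deposited tables leave out models without reads, and a missing model was taken as 0. A count was called whole within 0.004.

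Expected counts were rounded and fitted with edgeR 4.0.16 in R 4.3.3 (TMM, filterByExpr with a minimum count of 10, robust quasi-likelihood, a mean per week over all 6 libraries), with Benjamini-Hochberg adjustment. The procedure was tried on simulated data with planted changes larger than the rule allows a member. That trial therefore does not show how reliably members are called. Alternatives included limma 3.58.1 on log2(FPKM + 1), DESeq2 1.42.0 and other scalings. Named were the 10 members of highest and 3 of lowest mean FPKM, the 6 of smallest and 6 of largest ratio, the 2 longest and 2 shortest, and the 8 models nearest outside. Others named were chosen after their values were seen. The members and comparisons were chosen with earlier results of these data known. No sequence of a gene model was used.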

Additional observations from a re-analysis of the deposited data

How the results depend on the processing

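The number of members was 85. It became 174 with a floor of 100 FPKM, 32 with a floor of 400 FPKM and 50 below 1.4 times. When 1 library was left out the number was 88 to 114, but there the rule can only gain models and lose none. Under the other alternatives (bound of 1.6 times, equal sums, TMM, whole counts) it stayed within 1.5 times of 85, but with TMM 50 of the 82 models found were members. The counts of called members were 0 (week 4 against week 2), 21 (week 8 against week 4), 11 (week 8 against week 2) and 22 (F test). Of all tested models 37.2%, 38.0%, 26.9% and 51.8% were called. Total counts only gave 2, 3 and 1 for the last 3 (45.9%, 41.6% and 62.6% of all), and limma on log2(FPKM + 1) gave 3, 6, 7 and 6 for the 4 (35.3%, 45.0%, 40.0% and 61.3%). DESeq2 gave 3 in the first comparison and 19 in the third (31.3% and 22.7%). Leaving out 1 library gave 0 to 2, 3 to 23, 0 to 25 and 0 to 30 (18.4% to 39.0%, 15.7% to 39.5%, 15.1% to 34.7% and 34.5% to 55.3% of all). There the lone library of a week is taken to vary as other weeks do. The cause of these shifts was not tested beyond the scaling factors given above. Counts under RLE size factors and without a filter stayed within 1.5 times. Libraries of the same replicate number did not deviate together (correlations 0.01, -0.15 and -0.07 for weeks 2 and 4, 4 and 8, 2 and 8). A replicate block gave 0, 16, 7 and 15 called members (33.9%, 34.7%, 25% and 47.7% of all). The share of models picked in replicate 1 that met the rule in replicate 2 was 60.1%, beside 31.6% of all models abundant in replicate 1. With the replicates exchanged it was 80.5%, beside 42.9% of all models abundant in replicate 2, with the same 95 models meeting the rule both times.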
